A study of Mus musculus with 7 samples.

Results

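Immature neuron genes are 7 genes, *Dcx*, *Sox4*, *Sox11*, *Tubb3*, *Dpysl3*, *Cd24a* and *Igfbpl1*, that were picked by symbol from the 47729 genes of the count table. They are used to recognise newborn and migrating neurons, and whether older neurons of the tissue also carry their RNA was not tested. RNA was sequenced from whole forebrain of P15 mice, with 4 samples of *Lhx6*+/- mice (control) and 3 of *Lhx6*-/- mice (mutant). Each sample pooled 2 animals on a background labelled F1(C57BL/6 X 129Sv), and the null allele of the study is *Lhx6*tm2Vpa, a germline mutation. Controls thus lacked 1 copy of *Lhx6*, and no wild-type animals were compared. Control pools held 2 males or 2 females, whereas mutant pools held 2 females or 1 animal of each sex, and the columns of the table do not say which library came from which pool. *Lhx6* had 476 to 615 normalized counts in the control libraries and 70.1 to 76.6 in the mutant libraries, lower in every library labelled mutant. Genes of the cerebral cortex were present (*Tbr1*, 3397 to 4726 counts), and *Hoxb5*, a gene of the hindbrain and spinal cord, had at most 5 counts. Libraries summed to between 32556304 and 38069151 counts. They carry numbers in 2 runs (2, 3 and 5, and 10 to 13), which both hold both genotypes; for 23.0% of tested genes libraries 2, 3 and 5 lay all above or all below the other 4, so values are also given within each run. Values by library stand in the order 2, 3, 10, 11 for control pools and 5, 12, 13 for mutant pools. What the runs stand for is not given in the sources used here.

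Newborn neurons leave their progenitors, migrate and extend processes before they form synapses, and each of these steps has its own genes. In the postnatal forebrain such cells persist in the subventricular zone, along the route to the olfactory bulb and in the dentate gyrus. The SoxC transcription factors *Sox4* and *Sox11* switch on neuronal genes in cells that have just stopped dividing. *Dcx* (doublecortin) and *Tubb3* (neuronal β-tubulin) build and stabilise the microtubules of migrating neurons and growing axons, and *Dpysl3* encodes a collapsin response mediator protein that acts on the growth cone. *Cd24a* encodes a glycosylated surface protein of neuroblasts, which ependymal cells also carry, and *Igfbpl1* encodes a secreted relative of the insulin-like growth factor binding proteins. The libraries come from bulk tissue, so that fewer cells of a type and less RNA per cell cannot be told apart.

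None of the 7 immature neuron genes passed the threshold between control and mutant forebrains (adjusted p of at most 0.05 in the quasi-likelihood F-test of edgeR, over all 19684 tested genes), which 4.85% of tested genes passed. Normalized counts are expected counts of a gene set to a common library size. Without adjustment, 2 of the 7, *Sox4* and *Igfbpl1*, had a p-value of 0.05 or less, as did 18.2% of tested genes. DESeq2 and limma-voom called 0 of the 7 as well, against 8.22% and 4.89% of tested genes. *Sox4* was the gene whose libraries separated by genotype, and *Igfbpl1* and *Cd24a* had higher means in mutants with libraries that overlapped. *Dcx*, *Sox11* and *Tubb3* had nearly equal means in both genotypes, and *Dpysl3* had a lower mean in mutants with a wide spread. Log2 fold changes ran from -0.28 for *Dpysl3* to 0.49 for *Igfbpl1*, with a median of 0.03, against -0.013 over all tested genes. All 7 genes passed the filter on low counts, and the fewest counts in any library were 202, for *Igfbpl1*.

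**Figure D1:**
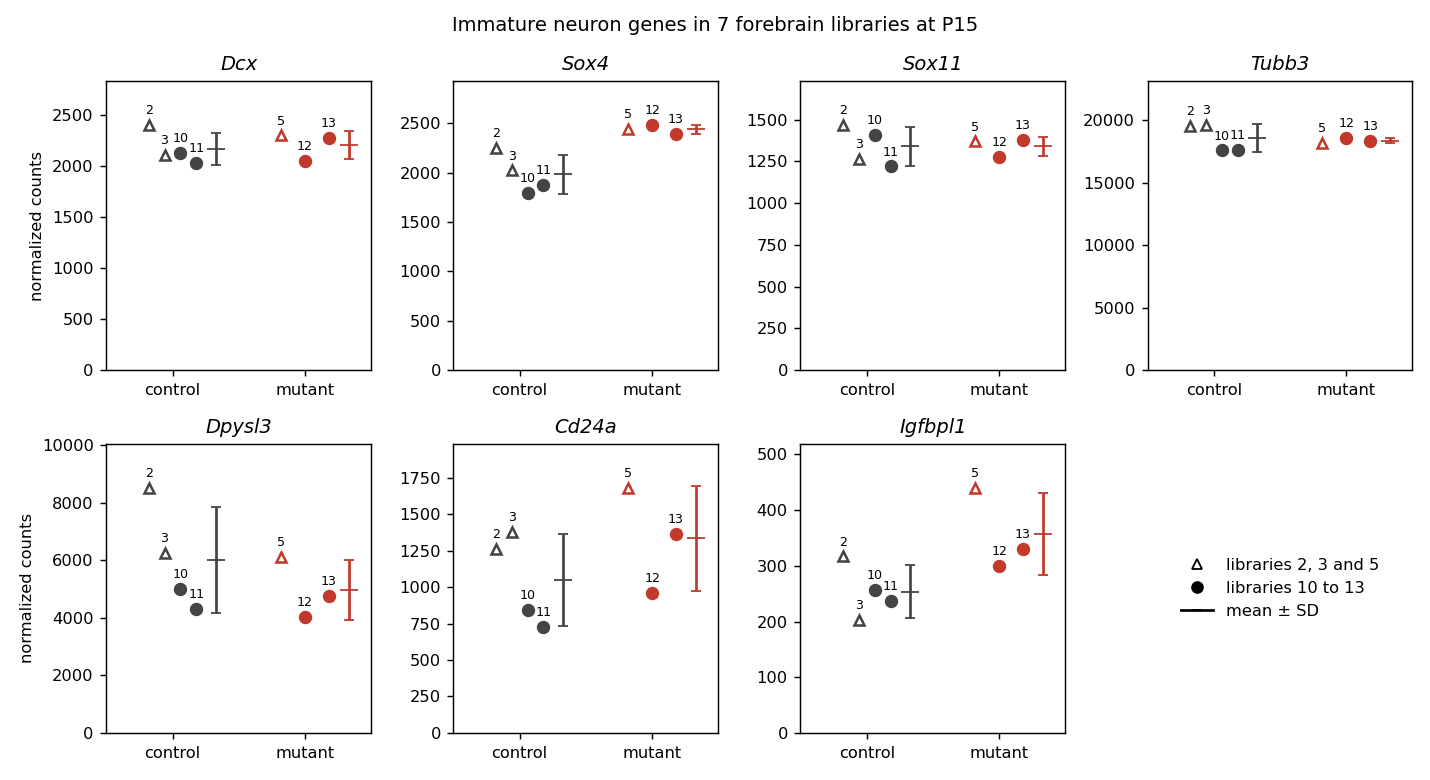
Normalized counts (vertical axes, from 0) of each immature neuron gene in the 4 control and 3 mutant libraries, numbered as in the table; triangles are libraries 2, 3 and 5, circles libraries 10 to 13, and bars show the mean and SD. The 3 mutant libraries of *Sox4*, from 2388 to 2481, sit above all 4 control libraries, whereas the genotypes overlap for the other 6 genes.

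*Sox4* (chromosome 13, 28948919 to 28953713 on the minus strand of GRCm38, 1 exon) had 2247, 2022, 1793 and 1876 normalized counts in the control pools and 2447, 2481 and 2388 in the mutant pools. All mutant libraries lay above all control libraries, a pattern shared by 10.7% of tested genes. The mean of the controls was 1985 ± 199 (SD, n = 4 pools) and that of the mutants 2439 ± 47.0 (SD, n = 3 pools). The log2 fold change was 0.30 (SE, standard error, 0.0891, edgeR adjusted p = 0.108), so that the difference did not pass the threshold. Its 95% interval placed the mutant level between 1.07 and 1.41 times the control level before any correction for the number of genes. Libraries 2, 3 and 5 alone gave a log2 difference of 0.20, and libraries 10 to 13 gave 0.41. With the run as a covariate, *Sox4* was called higher in mutants (0.32, edgeR adjusted p = 0.0233), as were 6.16% of tested genes, and with libraries 10 to 13 only, a choice made after seeing the data, it was called too (0.42, edgeR adjusted p = 0.00795), as were 5.46% of tested genes. The alternatives gave it adjusted p-values between 0.00795 and 0.289. The antisense gene *Gm26735* covers 54.6% of the exon bases of *Sox4* on the other strand. It was listed at 0 in all 7 libraries, and whether reads were counted by strand is not given in the sources used here, so that part of the count of *Sox4* is uncertain.

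*Sox11* (chromosome 12, 27334264 to 27342574, minus strand, 1 exon), the closest relative of *Sox4* among the immature neuron genes, had 1467, 1264, 1411 and 1220 normalized counts in the control pools. The mutant pools had 1370, 1276 and 1378, all inside the range of the controls. The log2 fold change was 0.00 (SE 0.0876, edgeR adjusted p = 0.998), just below 0 with RLE size factors, and the 95% interval ran from 0.871 to 1.15 times the control level. *Sox12*, the third SoxC gene, had a log2 fold change of -0.10 (adjusted p = 0.773 from edgeR). The ratio of *Sox4* to *Sox11* normalized counts was 1.53, 1.6, 1.27 and 1.54 in the control pools and 1.79, 1.94 and 1.73 in the mutant pools. This ratio was higher in all 3 mutant libraries than in any control library, with a log2 difference of 0.30 (two-sided exact permutation test, p = 0.0286, the smallest that 35 arrangements of the libraries allow). The ratio was chosen after the values of both genes were seen and its p-value is not adjusted. With *Sox11* at 0.00, the log2 difference of the ratio restates that of *Sox4*. Exact permutation tests on single genes, over the same 35 arrangements, gave p = 0.0571 for *Sox4* and 0.0857 for *Igfbpl1*. The other immature neuron genes had p-values of 0.314 or more in that test.

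**Figure D2:**
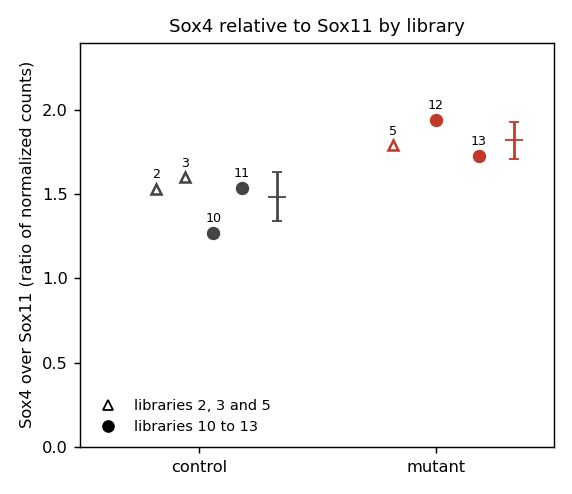
Ratio of *Sox4* to *Sox11* normalized counts (vertical axis, no unit, from 0) in each library; triangles are libraries 2, 3 and 5, circles libraries 10 to 13, and bars show the mean and SD. Control libraries lie between 1.27 and 1.6 and mutant libraries between 1.73 and 1.94.

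The stretches upstream of the start sites of *Sox4* and *Sox11* are shown because the genotypes separated for *Sox4* and overlapped for its relative. They are read 5′ to 3′ from RefSeq promoters on GRCm38.p6, where 4 of the 7 genes were matched (*Dcx*, *Sox4*, *Sox11* and *Tubb3*). The *Sox4* stretch is chr13:28953714-28953949 and the *Sox11* stretch is chr12:27342719-27342968, both on the minus strand. Capitals mark matches to CCAAT on either strand.
Sox4: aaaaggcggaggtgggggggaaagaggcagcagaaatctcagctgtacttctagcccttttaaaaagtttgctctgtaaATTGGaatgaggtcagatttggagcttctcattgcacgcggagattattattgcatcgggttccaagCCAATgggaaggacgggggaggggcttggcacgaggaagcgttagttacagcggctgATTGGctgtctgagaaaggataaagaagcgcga
Sox11: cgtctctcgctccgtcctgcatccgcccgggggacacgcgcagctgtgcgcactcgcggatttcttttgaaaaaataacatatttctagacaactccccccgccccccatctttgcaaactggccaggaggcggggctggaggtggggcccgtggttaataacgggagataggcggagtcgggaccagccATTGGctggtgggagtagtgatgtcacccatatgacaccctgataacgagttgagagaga
Within 250 bases upstream of the RefSeq start, *Sox4* held 4 matches to CCAAT and *Sox11* held 1; the match of *Sox4* nearest to its start lies beyond the stretch shown. *Dcx* and *Tubb3* held 1 match each. At least 1 match was found in 33.8% of 32851 promoters of the same length, and the share with 4 was not counted. *Sox11* held 2 matches to GGGCGG, found on either strand in 32.7% of promoters, whereas *Sox4* held none. Neither *Sox4*, *Sox11*, *Tubb3* nor *Dcx* held the cAMP response element TGACGTCA (1.55% of promoters). *Tubb3* held TATAA 30 bases upstream of its start, and *Dcx* held it 98 and 193 bases upstream of its 2 RefSeq starts. On either strand, 22.8% of promoters held this motif. Matches of this kind say only that these letters occur in the window.

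*Dcx* lies on chromosome X (143855842 to 143933311, minus strand). It had 2397, 2104, 2122 and 2030 normalized counts in the control pools and 2296, 2045 and 2269 in the mutant pools. The genotypes overlapped throughout, and the means were 2163 ± 161 and 2203 ± 138 (SD, n = 4 and 3 pools). The log2 fold change was 0.03 (SE 0.0845, edgeR adjusted p = 0.917), with a 95% interval from 0.892 to 1.16 times the control level. Within the runs of libraries the differences were 0.03 and 0.05 on the log2 scale. The sex of the animals behind each library was not assigned, and its part in the values of this X-linked gene was not tested. Among the other doublecortin genes, the kinase gene *Dclk1* had 38265 to 42257 normalized counts in controls and 48760 to 49108 in mutants, without overlap. Its log2 fold change of 0.28 did not pass in edgeR (adjusted p = 0.0704) and passed in 4 of 17 alternatives. Over the 17, its adjusted p-values from edgeR, DESeq2 and limma-voom together ran from 0.000601 to 0.301. *Dclk2* and *Dclk3* had log2 fold changes of -0.08 and -0.15, neither past the threshold.

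*Tubb3* (chromosome 8, 123411424 to 123422015, plus strand) was the immature neuron gene with the most counts. The control pools had 19497, 19587, 17569 and 17595 normalized counts and the mutant pools 18154, 18562 and 18313. The mutant libraries lay between the lower and the higher pair of controls, with a log2 fold change of -0.02 (SE 0.0792, edgeR adjusted p = 0.946) that turned positive, to 0.0074, with upper quartile factors. The 95% interval, from 0.872 to 1.12 times the control level, was the narrowest of the 7. Of the 36-base words of its transcript, 1.77% occurred in another gene. Among 11 tubulin isotypes, *Tubb3* included, 1 rose in mutants and none fell. This was *Tubb6*, a β-tubulin of many cell types outside the nervous system, which had 154, 167, 136 and 137 normalized counts in the control pools and 367, 298 and 419 in the mutant pools (log2 fold change 1.28, SE 0.148, edgeR adjusted p = 0.00258). The other 9 were not called, with log2 fold changes of 0.10 for *Tuba1a*, -0.01 for *Tubb2a* (0.015 with upper quartile factors), -0.09 for *Tubb2b* and *Tubb4a*, 0.13 for *Tubb5*, 0.18 for *Tubb4b*, -0.09 for *Tuba4a*, 0.06 for *Tuba1b* and 0.04 for *Tuba1c*. Close copies make several of these uncertain, since 77.7% of the words of *Tuba1a* and 54.0% of those of *Tubb2a* occurred in other genes.

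*Dpysl3* (chromosome 18, 43320979 to 43438286, minus strand) had 8524, 6250, 5009 and 4319 normalized counts in the control pools and 6121, 4044 and 4763 in the mutant pools. Here the libraries separated by run of numbers and not by genotype. Libraries 2, 3 and 5 had at least 6121 and libraries 10 to 13 at most 5009, a separation in this direction that 12.1% of tested genes shared. The genotype difference was -0.28 on the log2 scale (SE 0.234, edgeR adjusted p = 0.621), and -0.25 and -0.08 within libraries 2, 3 and 5 and within libraries 10 to 13. Its 95% interval, from 0.571 to 1.2 times the control level, was wide. Without control library 2 the difference was -0.064. *Dpysl5*, which encodes another protein of the same family, had the same order of runs within each genotype, with 7499 and 5341 against 3776 and 3514 in controls and 6765 against 4096 and 4772 in mutants. Of the 5 collapsin response mediator genes none was called. *Dpysl2* had lower counts in all mutant libraries (7497 to 10567) than in any control library (10795 to 12263), a pattern shared by 9% of tested genes. Its log2 fold change was -0.34 (adjusted p = 0.179 from edgeR). *Dpysl2* was called lower with the run as a covariate (-0.38, edgeR adjusted p = 0.0433), as were 5.04% of tested genes. In libraries 10 to 13 only it was not called (-0.22, edgeR adjusted p = 0.108). *Crmp1*, *Dpysl4* and *Dpysl5* had log2 fold changes of -0.01 (0.016 with upper quartile factors), -0.05 and 0.05.

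*Cd24a* (chromosome 10, 43579169 to 43584262, plus strand) had 1260, 1378, 842 and 728 normalized counts in the control pools and 1682, 962 and 1363 in the mutant pools. Within each run the mutant libraries were higher, whereas over both runs the genotypes overlapped. The means were 1052 ± 315 and 1336 ± 361 (SD, n = 4 and 3 pools), and the log2 fold change was 0.35 (SE 0.254, edgeR adjusted p = 0.555). On the log2 scale the difference was 0.35 among libraries 2, 3 and 5 and 0.55 among libraries 10 to 13. With the run as a covariate *Cd24a* was called higher (0.48, adjusted p = 0.0445 from edgeR), so that 2 of the 7 genes were called higher in that fit, against the 6.16% of all tested genes given above. With libraries 10 to 13 only it was not called (adjusted p = 0.0566 from edgeR). Of 8 genes of ependymal cells none was called, and their summed level was 13.9 to 15.5 CPM (counts scaled to library size) in control libraries and 13.7 to 16.7 in mutant libraries. Of the words of *Cd24a*, 4.33% occurred in another gene.

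*Igfbpl1* (chromosome 4, 45809468 to 45826923, minus strand) was the least abundant of the 7. It had 317, 203, 256 and 237 normalized counts in the control pools and 440, 300 and 330 in the mutant pools. Control library 2 lay above mutant library 12, and with either of these libraries left out the genotypes did not overlap. The log2 fold change was 0.49 (SE 0.186, edgeR adjusted p = 0.200), the highest of the immature neuron genes, and the 95% interval ran from 1.05 to 1.89 times the control level. Libraries 2, 3 and 5 gave a log2 difference of 0.79 and libraries 10 to 13 one of 0.35. No alternative called it, and its adjusted p was lowest with the run as a covariate, at 0.0800 (edgeR). None of its 36-base words occurred in another gene.

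**Figure D3:**
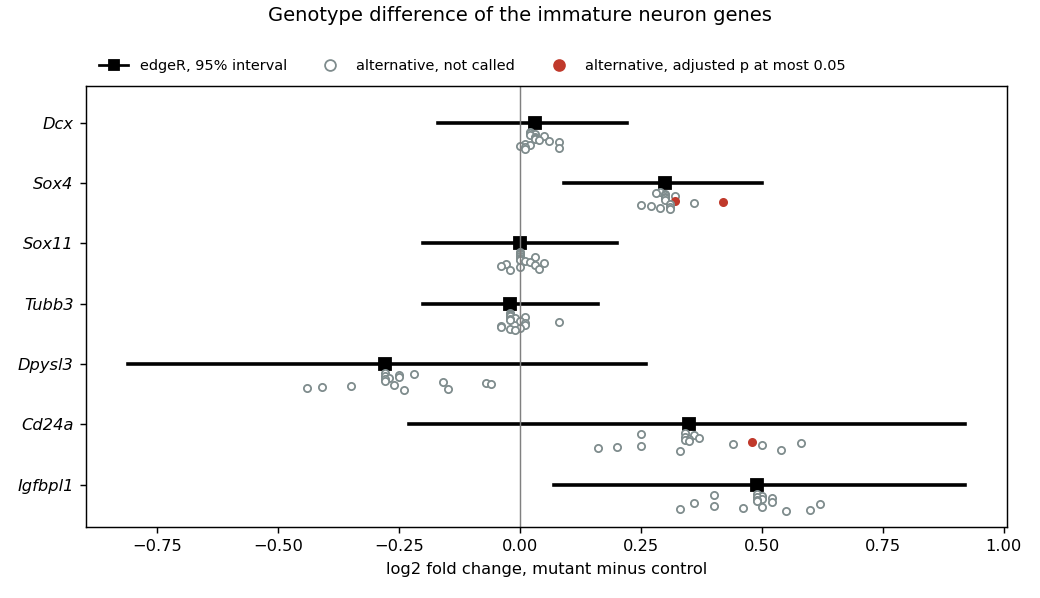
Log2 fold change, mutant minus control, of each immature neuron gene (horizontal axis); squares and bars give the edgeR estimate and its 95% interval, and circles the 17 alternatives, red where the adjusted p was 0.05 or less. Intervals of *Sox4* and *Igfbpl1* lie above 0, and red circles occur for *Sox4* (2 of 17) and *Cd24a* (1 of 17).

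Levels can be compared between genes only per length. In RPKM (normalized reads scaled to exon length and library size), control means were 279 ± 17.0 for *Tubb3*, 27.0 ± 8.28 for *Dpysl3*, 16.3 ± 4.88 for *Cd24a*, 11.6 ± 1.16 for *Sox4*, 4.80 ± 0.358 for *Dcx*, 4.53 ± 0.397 for *Sox11* and 2.19 ± 0.413 for *Igfbpl1* (SD, n = 4 pools). *Tubb3* was thus far above the rest in every library, from 264 to 294. The part of older neurons in this level was not tested, so that its values need not be those of newborn neurons. *Dpysl3* (18.1 to 38.2) and *Cd24a* (11.3 to 26.0) overlapped over the 7 libraries, as did *Cd24a* and *Sox4* (10.5 to 14.5), and *Dcx* and *Sox11* did not differ beyond their spread. In mutants *Sox4* had 14.3 ± 0.275 and *Igfbpl1* 3.08 ± 0.635 (SD, n = 3 pools). Counting the longest transcript in place of all exons, the control mean of *Dcx* was 6.69 and that of *Sox11* stayed at 4.53. Spread between control pools, as SD over mean, was 6.10% for *Tubb3*, 7.45% for *Dcx*, 8.78% for *Sox11* and 10.0% for *Sox4*, against 18.9% for *Igfbpl1*, 30.0% for *Cd24a* and 30.7% for *Dpysl3*.

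Over the 7 libraries, which differ in genotype and in run, the 21 pairs of immature neuron genes had Pearson correlations of log2 CPM from -0.12, for *Tubb3* and *Igfbpl1*, to 0.84, for *Dcx* and *Sox11*. *Sox4* and *Sox11* had a correlation of 0.18. With the mean of each genotype removed, correlations ran from -0.05, for *Tubb3* and *Igfbpl1*, to 0.90, for *Dpysl3* and *Dcx*. *Dpysl3* and *Cd24a* had 0.88, *Sox4* and *Tubb3* 0.86, and *Sox4* and *Dpysl3* 0.77, against 0.08 before removal. The run was not removed. Among controls, libraries 2 and 3 were higher than libraries 10 and 11 by 0.65 for *Dpysl3* and 0.75 for *Cd24a* on the log2 scale. The part of the run in these correlations was not tested. The mean standardized profile of the 7 genes was highest in control library 2 (0.99) and mutant library 5 (0.74) and lowest in control library 11 (-1.11). The genes outside the set that followed this profile most closely were *Gart* (r = 0.982 over 7 libraries), *Tmem164* (0.977), *Aloxe3* (0.972), *3110009E18Rik* (0.971) and *Pemt* (0.968), none of them called. These correlations describe 7 libraries searched over all genes and carry no test.

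Genes known from the same and neighbouring stages of neuronal life were counted in the same fit. Of 19 other genes of newborn neurons none was called, and 4 had an unadjusted p-value of 0.05 or less; the median log2 fold change was -0.10, with 7 positive and 12 negative. With the run as a covariate 3 of the 19 were called, against 11.2% of tested genes in either direction. These 3 are named here after their values were seen. *St8sia2*, a polysialyltransferase gene, and *Islr2* were higher (0.67 and 0.38, edgeR adjusted p = 0.0325 and 0.0339) and *Marcksl1* was lower (-0.39, edgeR adjusted p = 0.0230). In libraries 10 to 13 only, *St8sia2* and *Islr2* were called higher again, 2 of the 19. Of 14 transcription factors of neurogenic lineages none was called (median -0.03), against 1 higher with the run as a covariate (*Pax6*, 0.41) and 2 higher in libraries 10 to 13 only (*Sp8* and *Sp9*, 1.00 and 0.64). Of 10 genes of dividing cells none was called and 8 were positive (median 0.27). Among 12 genes of mature neurons, *Nefl* and *Nefm*, which encode subunits of neurofilaments, fell in mutants, and no gene rose. With the run as a covariate 4 of the 12 fell, as did 5.04% of tested genes. *Nefl* had 18099 to 19631 normalized counts in control libraries and 13141 to 14232 in mutant libraries (log2 fold change -0.45, adjusted p = 0.0132 from edgeR), and *Nefm* had 9427 to 14786 and 5801 to 7815 (-0.79, adjusted p = 0.0443 from edgeR). The call of *Nefl* was lost when mutant library 5, 12 or 13 was left out (adjusted p = 0.0708, 0.0501 and 0.0951 from edgeR), while its log2 fold change stayed at -0.42, -0.48 and -0.44. That of *Nefm* was lost without control library 2 or 3 (0.0940 and 0.0550), without mutant library 5, 12 or 13 (0.0695, 0.152 and 0.187) and with upper quartile factors (0.0515, all adjusted p from edgeR), with log2 fold changes between -0.66 and -0.90.

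Markers of other cells were measured beside the immature neuron genes. The summed level of 5 endothelial genes was 220 to 255 CPM in controls and 265 to 307 in mutants, without overlap, as for *Sox4*; all 5 had positive values and none was called. With the run as a covariate, the fit that called *Sox4*, 2 of the 5 were called higher (*Cldn5*, a tight junction gene, 0.45, and *Pecam1*, an adhesion gene, 0.37), and both were called in libraries 10 to 13 only. The part of these cells in the values of *Sox4* was not tested. Of 7 genes of oligodendrocyte precursors none was called by edgeR and 1 was called higher by DESeq2. Their sum was 593 to 728 CPM in controls and 612 to 654 in mutants. *Cspg4* had higher counts in all mutant libraries (1969 to 2291) than in any control library (1232 to 1790). Its log2 fold change was 0.42 (edgeR adjusted p = 0.117), and 1 other gene of the list lay lower in all mutant libraries. Of 6 astrocyte genes *Gfap*, the intermediate filament gene, rose (1.95, adjusted p = 7.41e-05 from edgeR), and the list summed to 1364 to 1484 CPM in controls and 1995 to 2257 in mutants. *Gfap* made up most of that difference, and without it the sum was 1188 to 1296 in controls and 1368 to 1492 in mutants. The astrocyte sums thus did not overlap either, with or without *Gfap*. Fitting the run as a covariate called 3 of the 6 higher, and libraries 10 to 13 only called 2 higher. The part of astrocytes in the values of *Sox4* was not tested. Of 6 microglial genes and 6 genes of the choroid plexus none was called, and all 6 of each were negative (medians -0.13 and -0.61). A microglial gene, *P2ry12*, was called lower with the run as a covariate (-0.35). The microglial sum was 368 to 372 CPM in controls and 307 to 361 in mutants, and that of the choroid plexus 130 to 279 and 63.8 to 213. Of 7 genes of olfactory bulb neurons, 6 were tested, of which *Th*, the rate-limiting enzyme of catecholamine synthesis, rose (2.83, adjusted p = 0.000440 from edgeR) and *Cdhr1*, a cadherin-related gene, fell (-0.79, adjusted p = 0.0441 from edgeR). The call of *Cdhr1* was lost when control library 2, 10 or 11 or mutant library 5, 12 or 13 was left out (adjusted p from 0.0752 to 0.123 from edgeR, log2 fold change from -0.60 to -0.91). The sum of this list was 17.6 to 21.4 CPM in controls and 23.8 to 28.9 in mutants, a rise that *Th* alone carried, since without *Th* the sum was 15.9 to 20.2 in controls and 14.9 to 15.6 in mutants. With the run as a covariate *Th* and *Trh* were called higher (*Trh* 1.07, edgeR adjusted p = 0.05) and *Cdhr1* was called lower. *Tbx21* was not tested. What these cells add to the values of the immature neuron genes was not tested.

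**Figure D4:**
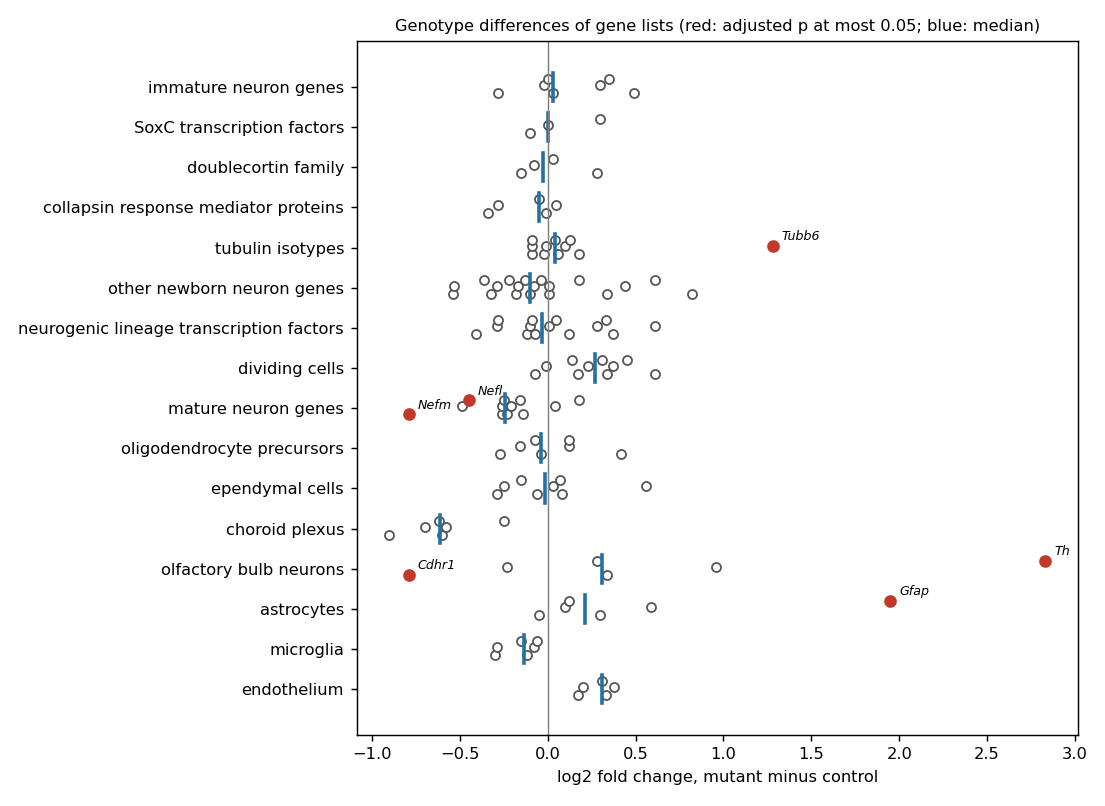
Log2 fold change, mutant minus control (horizontal axis), of every tested gene in the immature neuron set and 15 further lists; each circle is a gene, red where the adjusted p was 0.05 or less, and blue bars are medians. The 7 immature neuron genes lie between -0.28 and 0.49 with none in red, whereas *Tubb6*, *Nefl*, *Nefm*, *Th*, *Cdhr1* and *Gfap* are in red in other lists.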

How the data were processed

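The authors trimmed single-end reads with CutAdapt (version 1.9.1), aligned them with Bowtie2 (2.2.9) to Ensembl 84 mouse transcripts (GRCm38) and deposited the expected counts per gene from RSEM (1.2.31), without normalization. RSEM divides reads that match several genes; whether it used strand is not given in the sources used here. The authors also deposited a DESeq2 comparison (mean counts, fold changes, p-values), of which only the gene symbols were used. Expected counts were rounded, genes reaching 10 counts in 3 or more libraries were kept, and TMM-normalized counts (relative to the mean effective library size) were tested with edgeR 4.0.16 (quasi-likelihood F-test, R 4.3.3) between genotypes, without covariates and with Benjamini-Hochberg adjustment over all tested genes. Alternatives used DESeq2 1.42.0 and limma 3.58.1. Test scripts were tried on simulated data. All 7 sample columns were used. A listed 0 leaves room for 3 counts (0.0788 to 0.0921 CPM, counting error only). Libraries of a genotype differed by more than sampling noise (chi-square per degree of freedom 9.93 to 70.4). Chi-square per degree of freedom was 9.93 and 10.5 within libraries 10 to 13. It was 36.9 between libraries 2 and 3 and 45.2 to 70.4 across runs. Without a run term, the p-values measure the spread between pools of 2 animals with the difference between runs included. The members and lists were chosen with earlier results of these data known. Genes named are the members, every gene of the families of *Sox4*, *Dcx*, *Dpysl3* and *Tubb3*, up to 4 called genes a list and direction, *Lhx6* and the 5 genes closest to the members' mean profile; others, and the sums without *Th* or *Gfap*, were chosen after their values were seen. Exon lengths, positions and overlaps came from the deposited annotation, and shared 36-base words from GENCODE M21 transcripts of the same build, on either strand.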

Additional observations from a re-analysis of the deposited data

Results flagged for a closer look

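In 36 named genes, the control libraries were searched for 1 value far from the other 3, which chance gives in about 1 of 20 groups. None of the 7 immature neuron genes had such a value. *Tuba4a* was low in control library 2, at 19058 normalized counts against 22279 to 22631 in the others, and *Nefl* was high in control library 3, at 19631 against 18099 to 18330.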

How the results depend on the processing

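Of the immature neuron genes, edgeR called 0 higher and 0 lower. With the run as a covariate 2 were called higher (*Sox4* and *Cd24a*), with libraries 10 to 13 only 1 (*Sox4*), and with each library left out 0; the cause was not tested. Libraries 10 to 13 hold 2 pools of each genotype. The immature neuron genes with genotypes that do not overlap numbered 1 of 7, a pattern that 19.7% of tested genes showed in either direction. With a library left out they numbered 1 to 2, the second being *Igfbpl1* without control library 2 or mutant library 12. Over all tested genes 954 were called, against 1690 and 1689 in DESeq2 without and with its beta prior, 2205 with the run as a covariate, 1867 in libraries 10 to 13 only and 302 to 971 with a library left out. In the other lists 6 genes were called, against 11 and 11 in DESeq2, 20 with the run as a covariate, 16 in libraries 10 to 13 only and 3 to 7 with a library left out. Among values near 0, log2 fold changes turned sign for *Sox11* (-0.0029 and -0.0027 in DESeq2 without and with its prior, -8e-04 with RLE size factors), *Tubb3* (0.0074 with upper quartile factors, 0.077 in libraries 10 to 13), *Crmp1* (0.016 with upper quartile factors, 0.046 with the run, 0.11 in libraries 10 to 13), *Dpysl4* (0.0057 in libraries 10 to 13), *Tubb2a* (0.015, 0.014 and 0.074 in the same 3 settings as *Crmp1*), *Tuba1b* (-0.019 with the run, -0.006 in libraries 10 to 13) and *Tuba1c* (-0.025 in limma-voom, -0.14 with the run). With a library left out they ran from -0.0027 to 0.079 for *Dcx*, -0.042 to 0.047 for *Sox11*, -0.043 to 0.0096 for *Tubb3*, -0.16 to 0.014 for *Sox12*, -0.072 to 0.065 for *Crmp1*, -0.17 to 0.3 for *Dpysl5*, -0.058 to 0.023 for *Tubb2a*, -0.15 to 0.039 for *Tubb2b*, -0.04 to 0.21 for *Tuba1b* and -0.14 to 0.34 for *Tuba1c*. No paired analysis was possible because the columns of the count table carry no replicate number of the labels. Every immature neuron gene had at least 202 counts in each library.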
